A study of Mus musculus with 7 samples.

Results

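The 4 mature arms of miR-9 and miR-92b, mmu-miR-9-5p, mmu-miR-9-3p, mmu-miR-92b-3p and mmu-miR-92b-5p, were described in small RNA libraries from mouse lateral ventricles and choroid plexus. They were taken by name and are 4 of 1914 mature mouse miRNA rows, of which 1284 had at least 1 read. The libraries came from 4 samples of TAp73 knockouts (KO) and 3 samples of wild types (WT), all adult and of strain C57BL/6J. TAp73 denotes those isoforms of the transcription factor p73 that hold its transactivation domain. The labels give neither the age in weeks nor the design of the allele, and do not say whether any library pooled animals, nor whether 1 animal gave more than 1, so the tests measure only how these libraries vary. Replicate numbers follow accession order and pair no KO library with a WT library. By its title, the study concerned posttranscriptional regulation by TAp73 while multiciliated cells form in the brain.

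miR-9 is expressed throughout the neural lineage and is best known from neural progenitors, where its 5p arm represses the progenitor factor Nr2e1 (Tlx). Its 3p arm, once called miR-9*, is loaded into Argonaute as well and represses a subunit of the progenitor form of the BAF chromatin complex. miR-92b is found in radial glia and intermediate progenitors of the developing cortex, where its 3p arm represses the transcription factor Eomes (Tbr2). The dissected ventricle wall holds ependymal cells with motile cilia and, beneath them, the adult neural stem cell niche.

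The mature sequences, from RefSeq on build GRCm38.p6 and written 5′ to 3′, show that the arms differ in their seeds, the bases 2 to 8 that pair with targets, given here in capitals. The first 4 are the arms described here, and the last 4 are the other miRNAs with reads that share the seed of miR-92b-3p.
miR-9-5p: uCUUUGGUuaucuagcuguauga
miR-9-3p: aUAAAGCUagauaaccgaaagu
miR-92b-3p: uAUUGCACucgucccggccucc
miR-92b-5p: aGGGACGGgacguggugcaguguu
miR-92a-3p: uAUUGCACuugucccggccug
miR-25-3p: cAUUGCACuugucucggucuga
miR-32-5p: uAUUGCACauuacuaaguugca
miR-363-3p: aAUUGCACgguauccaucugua

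No other mature mouse miRNA of the RefSeq table carries the seed of miR-9-5p, miR-9-3p or miR-92b-5p. The seed of miR-92b-3p is shared with 5 others, the 4 above and miR-367-3p, which had 0 reads in all 7 libraries. Counting positions from 1 at the 5′ end, miR-92b-3p differs from miR-92a-3p by C10U and C21G over their shared length, with miR-92b-3p first in each token, and is 1 base longer. A read that ends before position 21 therefore separates these 2 miRNAs by 1 base, and how the authors assigned such reads is not given in the sources used here. From miR-25-3p it differs at 6 positions.

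Both arms of miR-9 can come from 3 loci, whose hairpins are shown with the mature arms in capitals because these arms are identical in all 3, so that the counts cannot be divided among loci. The hairpin of Mir92b is given for comparison.
Mir9-1: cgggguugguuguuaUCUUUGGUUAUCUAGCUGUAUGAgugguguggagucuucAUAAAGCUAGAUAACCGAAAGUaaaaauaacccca
Mir9-2: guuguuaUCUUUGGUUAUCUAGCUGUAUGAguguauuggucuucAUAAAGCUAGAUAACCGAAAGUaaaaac
Mir9-3: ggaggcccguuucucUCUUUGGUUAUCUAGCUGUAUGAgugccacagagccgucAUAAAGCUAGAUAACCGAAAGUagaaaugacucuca
Mir92b: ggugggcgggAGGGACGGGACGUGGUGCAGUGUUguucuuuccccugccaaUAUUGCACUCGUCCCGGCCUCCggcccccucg

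On GRCm38, with GENCODE annotation, Mir9-1 (chromosome 3, 88215598 to 88215686, plus strand) lies in an intron of the long noncoding RNA gene Gm3764 on its own strand. A predicted miRNA gene, Gm25641, overlaps it on the minus strand. Mir9-2 (chromosome 13, 83738814 to 83738885, plus strand) overlaps an exon of the long noncoding RNA gene C130071C03Rik on its own strand. Mir9-3 (chromosome 7, 79505264 to 79505353, plus strand) lies in an intron of its long noncoding host gene Mir9-3hg. Mir92b (chromosome 3, 89227116 to 89227198, minus strand) lies in no other annotated gene, 28 bases from Mtx1 and 279 bases from Thbs3. Mir9-1 and Mir92b lie on the same chromosome, 1.011 Mb apart.

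The libraries held 955057 to 9233235 mouse miRNA reads in KO and 2211619 to 3647102 in WT, with KO replicate 3 the shallowest. A count of 0 allows up to 3 reads, which is 3.14 counts per 1000000 mouse miRNA reads (CPM) in that library, and 0.325 CPM in KO replicate 1. The kit carries no molecular identifiers, so such limits and the intervals on shares cover counting error only. Over the 534 miRNAs tested, the log2 levels of WT replicate 2 had a Pearson's r of 0.990 with KO replicate 4, 0.989 with KO replicate 2 and 0.985 with KO replicate 1. Its r was lower, at 0.983 and 0.982, with WT replicates 1 and 3, so it lay nearer to most KO libraries than to its own genotype. This was not particular to WT replicate 2. WT replicate 1 had its highest r with KO replicate 2, at 0.98341, beside 0.98305 with WT replicate 2 and 0.98072 with WT replicate 3. Its r with KO replicates 1 and 3 was lower, at 0.973 and 0.971, and WT replicate 3 was nearest to WT replicate 2. These correlations are across miRNAs, which are not independent replicates. Trp73, the gene that encodes TAp73, was not measured in these small RNA libraries, so the genotypes were not checked against it.

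Levels are given as CPM. The 8 mature sequences above are 21 to 24 bases long, so levels were not divided by length, and since adapters join to some small RNAs more readily than to others, levels of different miRNAs are set side by side only as read shares. miR-9-5p was the 10th most abundant of the 534 tested by mean level and miR-92b-3p the 18th. Together they took 2.80% to 4.12% of the mouse miRNA reads of a library. miR-9-3p ranked 100th and miR-92b-5p 498th. The 4 arms thus spanned levels from 3.68 CPM for miR-92b-5p to 24271 CPM for miR-9-5p on average over the 7 libraries.

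**Figure D1:**
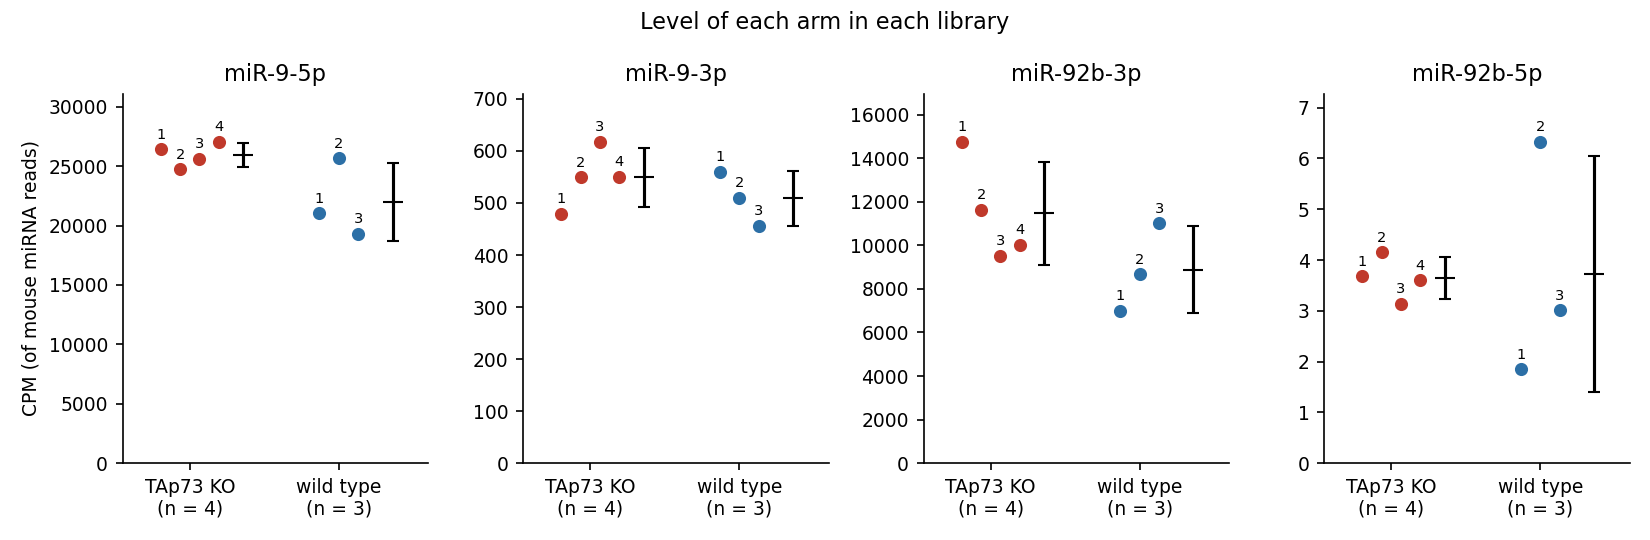
Level of each arm (y axis, CPM of mouse miRNA reads) in each library of TAp73 KO (red, n = 4) and WT (blue, n = 3), with replicate numbers beside the points and mean ± SD in black. For each arm the ranges of the genotypes overlap, and WT replicate 2 lies among the KO libraries for miR-9-5p.

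None of the 4 arms passed the test between genotypes, where 1.12% of all tested miRNAs were called (6 of 534, edgeR's quasi-likelihood test, adjusted p under 0.05). DESeq2, which called 2.43% of all tested, called 0 of the 4, and limma-voom called 0 of the 4. DESeq2 gave no adjusted p for miR-92b-5p, nor for 63 of the 534 in all, so it could not have called that arm. For 4 of the 4 the estimate was above 0, as for 47.2% of all tested, and for 0 of 4 did the KO libraries lie wholly on one side of the WT libraries, which was so for 11.8% of all tested. The major arms, miR-9-5p and miR-92b-3p, had an unadjusted p under 0.05, which 12.9% of all tested miRNAs had. With library totals alone in place of TMM scaling, whose factors were 0.968 to 0.983 in KO and 1.007 to 1.072 in WT, neither did. The median log2 fold change of the 4 was 0.25, beside -0.02 over all tested. In these bulk samples, a difference in the number of cells of a type and one in the RNA per cell cannot be told apart.

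mmu-miR-9-5p, the arm that represses Nr2e1, stood at 26450, 24751, 25628 and 27063 CPM in KO replicates 1 to 4, against 21033, 25654 and 19319 CPM in WT replicates 1 to 3. The KO libraries lay close together, while WT replicate 2 stood above KO replicates 2 and 3, and WT replicates 1 and 3 were below every KO library. Between WT replicate 2 and KO replicate 3, neighbours in the order of levels, the gap was smaller than the SD of either group. miR-9-5p averaged 25973 ± 1005 CPM in KO and 22002 ± 3277 CPM in WT (SD, n = 4 and 3). Its level in KO was 1.24-fold that in WT (95% interval 1.03 to 1.51), a log2 fold change of 0.31 ± 0.13 (SE), which did not pass (edgeR adjusted p = 0.38). Without WT replicate 2 the log2 fold change was 0.47 ± 0.11, about 1.5 times as large, and still did not pass (edgeR adjusted p = 0.054). Without WT replicate 3 it was 0.20 ± 0.12, over 1.5 times smaller (edgeR adjusted p = 0.53), and with only KO replicates 1 and 2 and WT replicates 1 and 2 it was 0.19.

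mmu-miR-9-3p, the arm that represses the progenitor BAF subunit, stood at 479.2, 549.3, 617.8 and 550.7 CPM in KO replicates 1 to 4, against 560.5, 510.5 and 456.0 CPM in WT replicates 1 to 3. The shallowest KO library was the highest and WT replicate 3 the lowest, with the others interleaved. Its log2 fold change was 0.18 ± 0.14 (95% interval -0.13 to 0.50; edgeR adjusted p = 0.61). Without WT replicate 3 it was 0.08, and 0.11 with library totals alone. With only the 4 libraries whose titles are numbered consecutively, KO replicates 1 and 2 and WT replicates 1 and 2, it was 0.0064. The labels do not say whether these numbers mark litters, batches or neither.

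mmu-miR-92b-3p, the arm that represses Eomes, stood at 14756, 11629, 9515 and 10025 CPM in KO replicates 1 to 4, against 6993, 8668 and 11005 CPM in WT replicates 1 to 3. KO replicate 1 was the highest library and WT replicate 1 the lowest. WT replicate 3 stood above KO replicates 3 and 4. The arm averaged 11481 ± 2362 CPM in KO and 8889 ± 2015 CPM in WT (SD, n = 4 and 3), and its difference, 1.37-fold (95% interval 1.04 to 1.80; log2 fold change 0.45 ± 0.18), did not pass (edgeR adjusted p = 0.38). Without KO replicate 1 or WT replicate 1 the log2 fold change was 0.30 in each case.

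miR-92b-3p passed in 2 of 21 alternatives. With the 4 consecutively numbered libraries its log2 fold change was 0.81 ± 0.18 (edgeR adjusted p = 0.031), where 1.44% of 554 tested miRNAs were called. These 4 libraries include both of the highest KO libraries and both of the lowest WT libraries for this arm. With the level of miR-124-3p as a covariate its log2 fold change was 0.53 ± 0.11 (edgeR adjusted p = 0.041). That fit called 11 of 534 tested miRNAs, against 6 of 534 without the covariate. Over all 21 alternatives its adjusted p ran from 0.031 to 0.66.

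mmu-miR-92b-5p, the passenger arm, had 34, 32, 3 and 14 reads in KO replicates 1 to 4, against 5, 14 and 11 reads in WT replicates 1 to 3. These correspond to 3.68, 4.16, 3.14 and 3.61 CPM in KO and to 1.85, 6.33 and 3.02 CPM in WT. The lowest and the highest level were both in WT, and KO replicate 3 was at its detection limit. The mean, 3.65 CPM in KO and 3.73 CPM in WT, was lower in KO, while the edgeR estimate was above 0. The log2 fold change, 0.15 ± 0.41 (edgeR adjusted p = 0.87), had a 95% interval that reached down to -0.75 and up to 1.05. The fold change was below 0 without WT replicate 1 (-0.15) or WT replicate 3 (-0.0096). On the linear scale the interval with all libraries runs from 0.59-fold to 2.07-fold, and so covers differences in both directions. How far its width reflects the few reads or variation among libraries was not tested. Without WT replicate 2 the log2 fold change was 0.69.

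**Figure D2:**
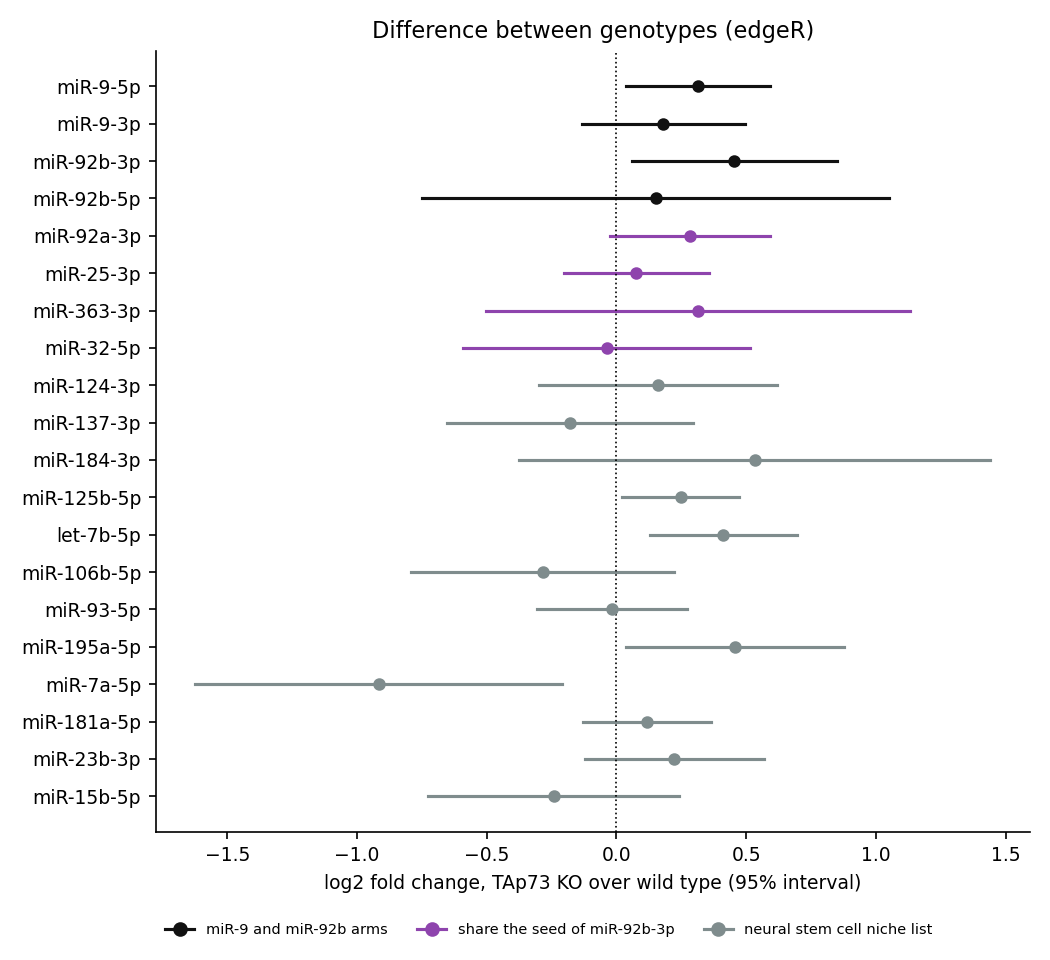
Log2 fold change, TAp73 KO over WT (x axis), with its 95% interval, for the miR-9 and miR-92b arms (black), the other tested miRNAs with the seed of miR-92b-3p (purple) and the neural stem cell niche list (grey). The intervals of miR-9-5p and miR-92b-3p lie just above 0, at 0.04 to 0.59 and 0.06 to 0.85 under TMM scaling, but include 0 with library totals alone, at -0.01 to 0.49 and -0.04 to 0.78. Those of miR-9-3p and miR-92b-5p include 0 as drawn.

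Of the seed relatives, miR-92a-3p is the most abundant, a product of the miR-17-92 cluster and its paralogue on the X chromosome. It stood at 2286, 2031, 1832 and 2106 CPM in KO replicates 1 to 4, against 1449, 1854 and 2085 CPM in WT replicates 1 to 3. The groups overlapped, with WT replicate 1 lowest as for miR-92b-3p, and the log2 fold change was 0.28 ± 0.14 (edgeR adjusted p = 0.42), and 0.14 without WT replicate 1. miR-25-3p, of the miR-106b-25 cluster that promotes proliferation of adult neural progenitors, averaged 574.4 ± 54.2 CPM in KO and 575.4 ± 12.2 CPM in WT (SD, n = 4 and 3). Its log2 fold change was 0.08 ± 0.13, and -0.0010 with library totals alone. miR-32-5p and miR-363-3p averaged 13.6 and 4.51 CPM in KO and 14.9 and 4.19 CPM in WT. The estimate for miR-32-5p, -0.04 ± 0.25, changed sign in 5 of 21 alternatives. Of the 5 listed relatives 4 were tested and 0 called by edgeR, DESeq2 or limma-voom, though DESeq2 gave no adjusted p for miR-363-3p. An unadjusted edgeR p under 0.05 was found for 0 of them, and their median log2 fold change was 0.18, beside -0.02 over all tested.

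Summed over the miRNAs with its seed, the family stood at 14138 ± 2532 CPM in KO and 11280 ± 2338 CPM in WT (SD, n = 4 and 3). Its libraries overlapped, as those of all but 9.62% of seeds did, with 17624, 14296, 11861 and 12769 CPM in KO replicates 1 to 4, against 9031, 11109 and 13699 CPM in WT replicates 1 to 3. The log2 fold change of the sum, 0.45 ± 0.17 (95% interval 0.06 to 0.83), did not pass (edgeR adjusted p = 0.46), in a fit of 395 seeds in which 0.253% were called. Without WT replicate 1 it was 0.30 (95% interval -0.10 to 0.70), and over the libraries left out in turn it ran from 0.30 to 0.59. The seed was the 14th most abundant of these. miR-92b-3p gave most of its reads, 83.7%, 81.3%, 80.2% and 78.5% in KO replicates 1 to 4, against 77.4%, 78.0% and 80.3% in WT replicates 1 to 3. The share averaged 80.9% ± 2.19 in KO and 78.6% ± 1.54 in WT (SD, n = 4 and 3) and the difference did not exceed the variation among libraries (two-sided exact permutation test, p = 0.17, adjusted p = 0.51 over 3 such measures). The smallest p that 4 against 3 libraries allow is 0.029. Adjusted together with the other measures, whose p in this test was 0.54, even that would not fall under 0.05. The share could therefore not have passed.

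**Figure D3:**
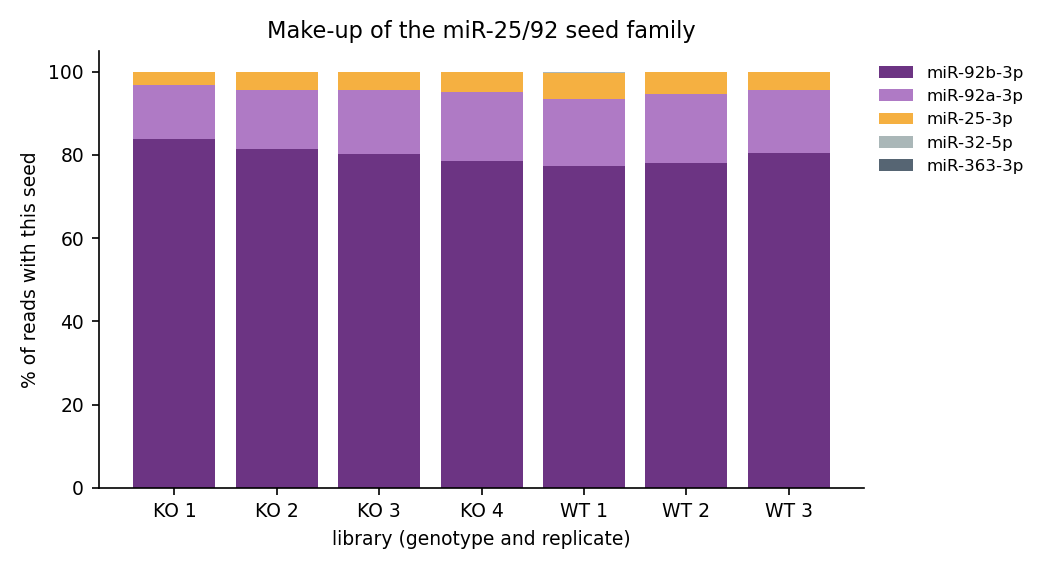
Share of the reads with the seed of miR-92b-3p (y axis, %) that each miRNA took, for the 4 TAp73 KO libraries and then the 3 WT libraries (x axis). miR-92b-3p takes 77.4% to 83.7% and miR-92a-3p 13.0% to 16.7% in each library, while miR-32-5p and miR-363-3p are too scarce to be seen.

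The hairpin of miR-9 gave many reads on both arms and that of miR-92b on 1 arm. On the miR-9 hairpin the 5p arm had 55.2, 45.1, 41.5 and 49.1 reads for each 3p read in KO replicates 1 to 4, against 37.5, 50.3 and 42.4 in WT replicates 1 to 3. The groups overlapped, as they did for all but 6.29% of hairpins, and the ratio averaged 47.7 ± 5.88 in KO and 43.4 ± 6.42 in WT (SD, n = 4 and 3). Arms were paired where their names match apart from 5p or 3p. A limma fit of this log2 ratio covered the 143 such hairpins with both arms tested. In it the 5p:3p ratio of miR-9 was 1.10-fold in KO relative to WT (95% interval 0.85 to 1.44, limma adjusted p = 0.88). That fit called 0 hairpins, 0.00% of 143, and 4 (2.80%) had an unadjusted p under 0.05. An exact permutation test gave p = 0.43 for miR-9. Its log2 difference, 0.14, was 0.07 without KO replicate 1, 0.04 without WT replicate 1 and 0.25 without WT replicate 2.

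The 3p arm of miR-9 took 1.78% to 2.35% of the hairpin's reads in KO and 1.95% to 2.60% in WT. Because the hairpin is abundant, miR-9-3p at 532.0 CPM on average was the 7th highest minor arm of 143 by level, while by share, 2.14%, it ranked 106th. The median minor arm share was 9.50%, but hairpins of low level entered only where the minor arm passed the filter as well, which leaves out low shares there. Among the 16 of these hairpins with at least 10000 CPM, miR-9 had the 5th highest share and miR-92b the 14th. Hairpins of some abundant miRNAs were not ranked, because no tested partner arm has a matching name. Among them were miR-181a-5p, miR-125b-5p and miR-128-3p, each above 10000 CPM on average in both genotypes. Next above miR-9 in share over all 143 was miR-31, at 2.23%, and next below was let-7e, at 2.09%.

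On the miR-92b hairpin the 3p arm took nearly all reads. The 5p arm held 0.0249% of them in KO replicate 1 (exact Clopper-Pearson 95% interval 0.0173% to 0.0349%), and 0.0330% to 0.0360% in the other KO libraries, against 0.0265%, 0.0730% and 0.0274% in WT replicates 1 to 3. WT replicate 2 held the highest share, from 14 reads (0.0399% to 0.122%). Only 2 of the 143 hairpins had a lower minor arm share. The 5p:3p ratio was 0.85-fold in KO relative to WT, with a 95% interval of 0.49 to 1.47 (limma adjusted p = 0.91), and its log2 difference, -0.23, was 0.23 without WT replicate 2.

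**Figure D4:**
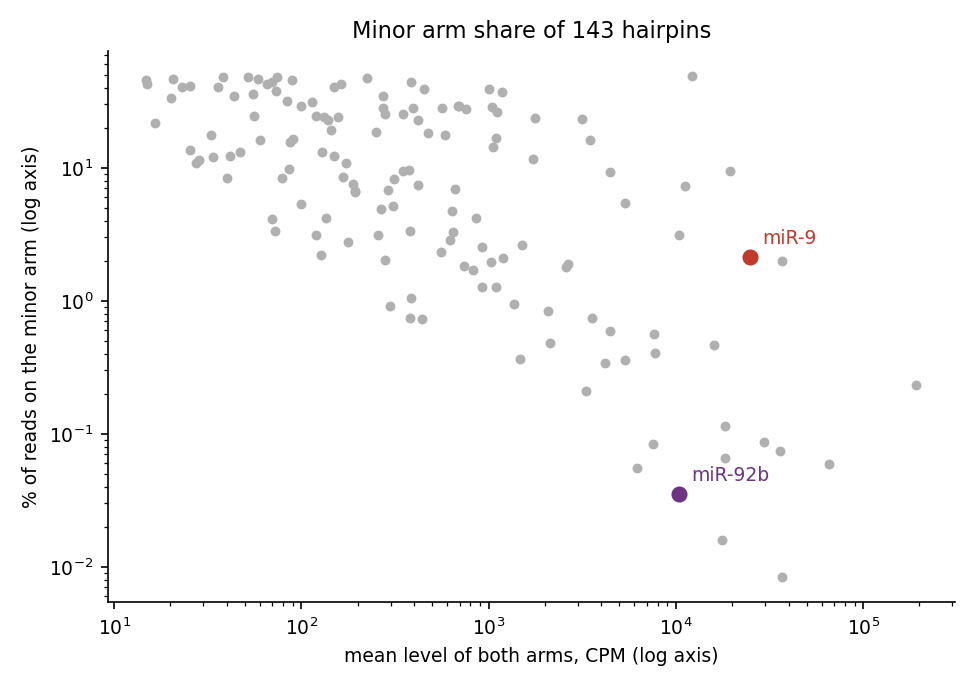
Share of a hairpin's reads on its minor arm (y axis, %, log axis) against the mean level of both arms over the 7 libraries (x axis, CPM, log axis), for 143 hairpins with both arms tested under matching names. miR-9 (red, 2.14% on the 3p arm) lies far above miR-92b (purple, 0.0355% on the 5p arm).

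As a measure that needs no scaling between libraries, the major arms were set against miR-124-3p, the miRNA of differentiating and mature neurons that acts with miR-9-3p on the BAF complex. miR-9-5p had 4.45, 3.20, 2.56 and 3.34 reads for each miR-124-3p read in KO replicates 1 to 4, against 2.40, 3.11 and 3.64 in WT replicates 1 to 3. For miR-92b-3p the ratios were 2.48, 1.51, 0.949 and 1.24 in KO replicates 1 to 4, against 0.798, 1.05 and 2.08 in WT replicates 1 to 3. Both ratios were highest in KO replicate 1 and lowest in WT replicate 1, and overlapped between genotypes. They share miR-124-3p as denominator, so they are not independent measures. miR-124-3p stood at 5948 CPM in KO replicate 1, its lowest KO level, and at 8763 CPM in WT replicate 1, its highest WT level. The ratios were 1.11-fold for miR-9-5p and 1.20-fold for miR-92b-3p in KO relative to WT on the log2 scale, neither beyond the variation among libraries (two-sided exact permutation test, p = 0.54 for each, adjusted p = 0.54). Without WT replicate 1 both log2 differences were just below 0, at -0.018 and -0.028, and without KO replicate 1 they were 0.0039 and 0.0085.

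**Figure D5:**
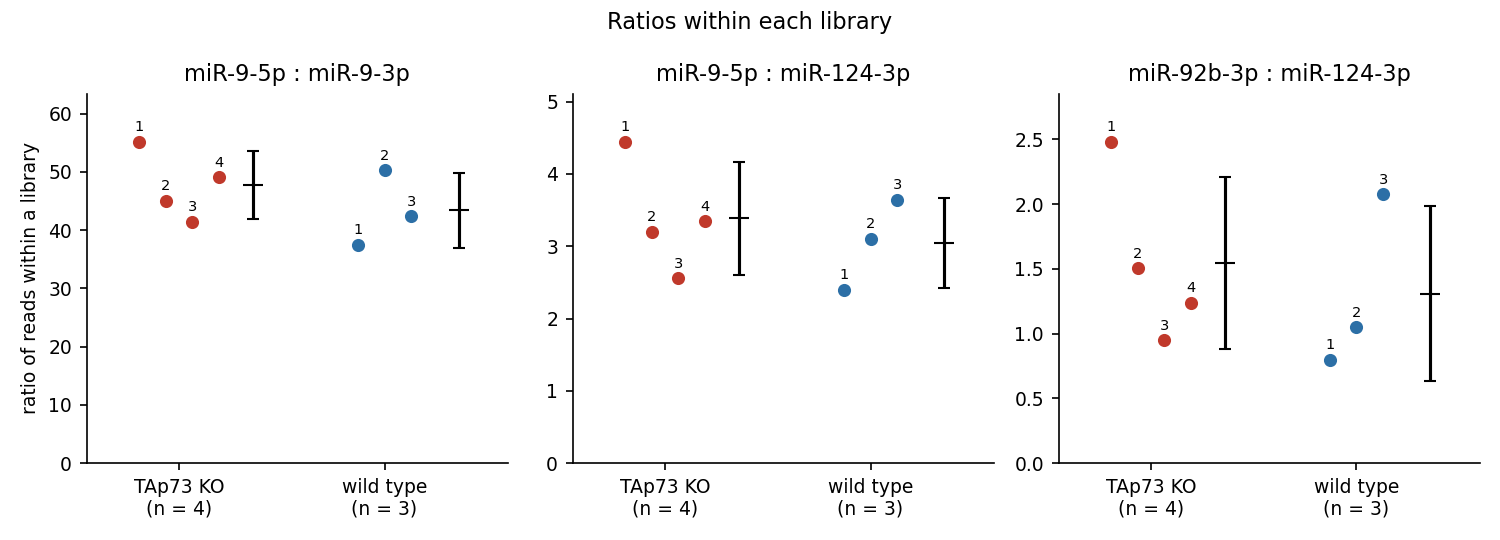
Ratio of reads within each library (y axis) of miR-9-5p to miR-9-3p, miR-9-5p to miR-124-3p and miR-92b-3p to miR-124-3p, for TAp73 KO (red, n = 4) and WT (blue, n = 3), with replicate numbers and mean ± SD in black. The ranges of the genotypes overlap in each panel, from 41.5 to 55.2 in KO and from 37.5 to 50.3 in WT for the arms of miR-9.

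Of 12 other miRNAs listed for their roles in neural stem cells, 12 were tested and 0 were called by edgeR, DESeq2 or limma-voom. In this list 4 had an unadjusted edgeR p under 0.05, as had 12.9% of all tested miRNAs. Estimates were above 0 for 7 of the 12, and for 47.2% of all tested. The median log2 fold change was 0.14, beside -0.02 over all tested. The smallest p in this list belonged to let-7b-5p, which represses Nr2e1 as miR-9-5p does. It stood at 1792, 1441, 1746 and 1728 CPM in KO replicates 1 to 4, against 1431, 1261 and 1294 CPM in WT replicates 1 to 3. Its KO libraries all lay above its WT libraries, KO replicate 2 by little, and the log2 fold change was 0.41 ± 0.13 (edgeR adjusted p = 0.23). miR-125b-5p, which acts in neuronal differentiation, likewise did not overlap, at 39021 to 40579 CPM in KO and 31289 to 37628 CPM in WT, with 0.25 ± 0.10 (edgeR adjusted p = 0.38), and 0.16 without WT replicate 1. Higher in KO without overlap were 3.56% of all tested miRNAs. miR-195a-5p, at 165.8 to 224.1 CPM in KO and 120.4 to 178.3 CPM in WT, had 0.46 ± 0.19 (edgeR adjusted p = 0.38), and 0.28 without WT replicate 3. miR-7a-5p, which represses Pax6 in the ventricle wall, had -0.92 ± 0.32 (edgeR adjusted p = 0.31), at 75.6 to 128.6 CPM in KO and 122.3 to 368.0 CPM in WT. WT replicate 3 held the highest level of miR-7a-5p, and without it the log2 fold change was -0.34.

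Markers of the other cell types in the dissection were read beside these values. Summed over 6 neuronal miRNAs, the level was 33872 to 38160 CPM in KO and 19911 to 33571 CPM in WT, so the groups did not overlap. Of these 6, 5 had estimates above 0, beside 47.2% of all tested miRNAs. An unadjusted edgeR p under 0.05 was found for 2 of the 6, beside 12.9% of all tested, and 0 were called by edgeR, DESeq2 or limma-voom. The largest part of the sum was miR-128-3p, a neuronal miRNA, at 17802 to 19444 CPM in KO and 8795 to 16667 CPM in WT. Without it the other 5 summed to 14428 to 19793 CPM in KO and 11116 to 17405 CPM in WT, which overlap. Their log2 fold changes were 0.51 for miR-132-3p, 0.16 for miR-124-3p, 0.03 for miR-138-5p, 0.01 for miR-129-5p and -0.18 for miR-137-3p. The part of neuronal content in the estimates for miR-9-5p and miR-92b-3p was not tested, beyond the miR-124-3p covariate, with which they were 0.30 ± 0.12 and 0.53 ± 0.11.

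The choroid plexus list, miR-204 and miR-211, summed to 2016 to 7435 CPM in KO and 2015 to 11789 CPM in WT, with 0 of 3 called and 0 at an unadjusted edgeR p under 0.05. miR-204-5p was scarce in KO replicate 3 and WT replicate 2, at 2006 and 2009 CPM, against 4993 to 11775 CPM in the other libraries. miR-211-5p did not follow it, and was highest in KO replicate 3, at 7.33 CPM from 7 reads. With the mean log2 level of miR-204-5p and miR-211-5p as a covariate, the log2 fold change was 0.26 ± 0.10 for miR-9-5p and 0.50 ± 0.18 for miR-92b-3p. Whether this covariate follows choroid plexus content was not tested. Oligodendrocyte markers summed to 597.9 to 833.1 CPM in KO and 603.2 to 996.7 CPM in WT, with miR-219a-5p at 0 in all libraries. Leukocyte and microglial markers summed to 590.4 to 790.5 CPM in KO and 534.5 to 599.4 CPM in WT. Erythrocyte markers summed to 3764 to 5217 CPM in KO and 3859 to 4196 CPM in WT. Endothelial markers summed to 785.3 to 984.8 CPM in KO and 880.8 to 980.8 CPM in WT, with miR-126a-5p at 0. The partner arms of miR-219a-5p and miR-126a-5p, miR-219a-2-3p and miR-126a-3p, held 14716 and 28839 reads over all libraries. Whether the 0 counts reflect absence or the way reads were assigned was not tested, so the detection limit given above may not hold for them. Of these last 4 lists 0 members were called by edgeR, DESeq2 or limma-voom. An unadjusted edgeR p under 0.05 was found for 1, an erythrocyte marker, beside 12.9% of all tested miRNAs. The 5 leukocyte and microglial markers all had estimates above 0, with a median log2 fold change of 0.35, as had the 4 erythrocyte markers, with a median of 0.36. Of all tested miRNAs 47.2% had estimates above 0. The 5p and 3p arms of miR-142a share a hairpin, as do those of miR-144, so these markers are not independent. miR-223-3p, miR-142a-3p and miR-155-5p were scarce, averaging 5.28, 8.65 and 5.84 CPM in KO and 3.27, 7.05 and 4.12 CPM in WT. The part of the cells of these last 4 lists in the estimates for the miR-9 and miR-92b arms was not tested. Of 6 multiciliated cell markers, arms of miR-34b, miR-34c and miR-449, 6 were called by edgeR, 2 higher and 4 lower, and they are the 6 called of all 534.

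The profiles of miR-9-5p and miR-92b-3p over the 7 libraries were compared after centring each on its own mean. Their log2 levels then differed by a root mean square of 0.31, below the median distance of either to all others. miR-92b-3p ranked 198th of 533 in likeness to miR-9-5p, and miR-9-5p ranked 100th in likeness to miR-92b-3p. Most like miR-9-5p were miR-30a-3p (root mean square difference 0.09), miR-142a-5p (0.10) and miR-22-3p (0.11), against a median of 0.35 over the 533 others. Most like miR-92b-3p were miR-423-3p (0.12), miR-27b-5p (0.13) and miR-181b-5p (0.14), against a median of 0.43. miR-423-3p stood at 159.3, 107.8, 101.6 and 100.2 CPM in KO replicates 1 to 4, against 61.9, 97.7 and 113.8 CPM in WT replicates 1 to 3, highest in KO replicate 1 and lowest in WT replicate 1, as miR-92b-3p was. miRNAs that vary little between libraries lie near each other by this measure, and all profiles share the same libraries and depths.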

How the data were processed

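Total RNA was turned into TruSeq small RNA libraries, per the labels' protocols. The authors deposited unnormalized read counts, with 1 table of named small RNAs per library. Per the submitters' processing notes, the tools included DESeq2 and bcl2fastq 2.17.1.14 and the build was mm10, with no role stated. Aligner, counter and annotation: not given in the sources used here. Closing lines for unassigned reads hold 0 reads. The mature mouse rows entered edgeR 4.0.16 under R 4.3.3: TMM scaling, filterByExpr by genotype (minimum count 10, total 15), robust quasi-likelihood test, Benjamini-Hochberg adjustment over all 534, threshold 0.05. Standard errors are the log2 fold change over the root of F. Arm ratios (0.5 reads added) were fitted with limma 3.58.1. Counts were also summed by seed, where 1628 of 1914 rows, with 92.7% to 93.6% of reads, matched RefSeq. Single ratios had exact permutation tests over 35 splits. The fits were tested on simulated data. No pair of libraries agreed within sampling noise (chi-square per degree of freedom 46.6 to 271.2). The 4 arms and all lists were chosen with earlier results of these data known. Named are the arms, seed relatives, the 4 niche miRNAs with the smallest p, the 3 nearest profiles of each major arm and the hairpins next to miR-9; miR-128-3p was chosen after its values were seen. miR-9b has no row. Alternatives included DESeq2 1.42.0, limma-voom, other scalings and filters, thinning, covariates and leaving out libraries. Another 72 rows with miR-9 or miR-92b in the name held 2 reads.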

Additional observations from a re-analysis of the deposited data

Results flagged for a closer look

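Of 20 values examined in the 4 KO libraries, 1 had a library far from the others, where chance gives about 1 in 20. The log2 5p:3p ratio of the miR-92b hairpin was lowest in KO replicate 1, at -11.95. The next lowest KO value was -11.43 and the highest -11.34, so the gap made up 0.860 of the KO range. It rests on 34 reads of miR-92b-5p in that library, and the exact interval of its 5p share, 0.0173% to 0.0349%, overlaps that of each other KO library. The 3 WT libraries were too few for this examination.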

How the results depend on the processing

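miR-9-5p, miR-9-3p and miR-92b-3p kept an estimate above 0 in each of 21 alternatives, at 0.19 to 0.47, 0.0064 to 0.25 and 0.30 to 0.81, and miR-92b-3p alone was ever called: 0.81 with the 4 consecutively numbered libraries and 0.53 with the miR-124-3p covariate. The cause was not tested. The number of called miRNAs, 6, was 13 with DESeq2 (no adjusted p for 63 of 534, miR-92b-5p and miR-363-3p among them), 19 with no filter, over more rows, 19 without KO replicate 3 and WT replicate 2 together, 11 with the miR-124-3p covariate, and 3 (without WT replicate 1) to 14 (without WT replicate 2) with single libraries left out; called seeds, 1, numbered 1 to 2 (2 without WT replicate 2). Leaving out 1 library changed the sign of miR-92b-5p (-0.15 to 0.69), of the miR-92b 5p:3p difference (-0.47 to 0.23), of the ratios of miR-9-5p (-0.018 to 0.28) and miR-92b-3p (-0.028 to 0.66) to miR-124-3p, and of miR-32-5p (-0.19 to 0.13; 0.0045 with no filter, 0.39 after thinning). miR-25-3p was -0.0010 with library totals alone, a scaling that moves the median of all tested by -0.08. The stricter filter and thinning removed miR-92b-5p. With 1 library left out, the exact tests could not pass. No paired analysis was possible because the labels give no replicate numbers shared between genotypes; the numbers used here follow accession order, and what the title numbers mark is not stated.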
